A study of Mus musculus with 6 samples.

Results

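Ribosomal protein genes were represented on the array by 100 probe sets of 48 genes, out of 22626 mouse probe sets. They were chosen by name: the platform annotation had to give exactly 1 symbol, that symbol had to be Rpl or Rps followed by a number, or Rplp0, Rplp1, Rplp2 or Rpsa, and S6 kinases and pseudogenes were dropped. A probe set is a group of short probes that together report 1 transcript region, and 23 of the 48 genes had several while 25 had 1. For each gene the probe set with the highest mean value over all 6 arrays was called the brightest, which gave 48 brightest and 52 dimmer probe sets. A further 102 probe sets carried several symbols with a ribosomal protein among them and lay outside this choice. Of these, 95 named 1 ribosomal protein beside pseudogenes or predicted genes, and they are described separately.

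The arrays compared lungs of Igf1-/- embryos, homozygous for a mutant allele of insulin-like growth factor 1, with lungs of Igf1+/+ wild type embryos. There were 3 arrays of each genotype. All embryos were at E18.5, shortly before birth, and came from matings of heterozygous parents with a C57BL/6J background. They received no treatment that the labels name. According to the methods, pups of this age were delivered by caesarean section and helped to breathe for a time before dissection. The paper describes normal breathing by the wild-type embryos in that period. The labels speak of pooled lungs while the methods describe independent biological replicates, so how many embryos stand behind an array is not settled, and p-values measure the spread between these RNA samples.

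Ribosomal proteins of the large (Rpl) and small (Rps) subunits are built into the ribosome together with ribosomal RNA, and each is needed in about equal numbers. Their mRNAs are among the most abundant in any growing cell. Most of them begin with a C followed by a run of pyrimidines, the 5′ terminal oligopyrimidine (TOP) tract, through which their translation is coupled to growth factor and mTOR signalling. Mammalian genomes also hold many processed pseudogenes of these genes, so probes designed for a ribosomal protein can share sequence with other loci.

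The starts of 6 genes with a probe set called at an adjusted p under 0.10 or 0.20 below are printed here, so that the TOP region can be seen. Each sequence is taken from RefSeq on build GRCm38.p6, runs 5′ to 3′ on the strand of the transcript, and covers 15 bases before and 15 bases from the annotated transcription start. The capitals mark the longest run of C or T in that window, which need not lie within the transcript. That of Rps25 ends before the annotated start, so it is not a TOP tract of the annotated transcript. It also touches the upstream edge of the window and may be longer than shown.
Rps9: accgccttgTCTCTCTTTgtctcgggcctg
Rps10: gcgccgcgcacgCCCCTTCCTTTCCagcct
Rpl12: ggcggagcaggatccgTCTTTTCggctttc
Rps25: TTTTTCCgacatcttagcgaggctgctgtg
Rpl35: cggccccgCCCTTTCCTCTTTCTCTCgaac
Rps18: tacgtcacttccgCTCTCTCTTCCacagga
These windows lie at chr7:3704026-3704055 (+) for Rps9, chr17:27635230-27635259 (-) for Rps10, chr2:32961697-32961726 (+) for Rpl12, chr9:44407699-44407728 (+) for Rps25, chr2:39005117-39005146 (-) for Rpl35 and chr17:33955651-33955680 (-) for Rps18. The runs are between 7 and 18 bases long. Of the 48 genes, 42 had an entry in the promoter table, and 27 of them held a run of at least 6 C or T bases on the transcript strand in this window. Counted by promoter, such a run was found in 27 of their 50 entries (54%) and in 29.2% of all 32851 promoter entries. This is a description of annotated sequence. The array reads the transcript near its 3′ end, and which part of the transcript each probe set reads was not examined.

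All values are log2 values after robust multi-array averaging (RMA), an array normalization in which 1 unit is a doubling. The test was limma over all mouse probe sets, with p adjusted by Benjamini-Hochberg and called under 0.10. The targeted gene was read first. The brightest Igf1 probe set read 8.87, 8.99 and 9.38 in the arrays labelled Igf1-/- and 9.28, 9.85 and 9.65 in those labelled Igf1+/+, with an overlap and a log2 fold change of −0.51 ± 0.17 (limma adjusted p = 0.267). A dimmer one read 6.15, 6.33 and 6.46 against 6.59, 7.12 and 6.97, with no overlap (adjusted p = 0.152). Another dimmer one, 1452014_a_at, read 6.66, 7.14 and 6.84 against 6.99, 7.45 and 7.46, with an overlap (limma adjusted p = 0.327). No source used here tells where these probes lie relative to the disrupted exons, which limits them as a check of the labels. Lung epithelial markers were high on all arrays, with Sftpc at 14.4 and Sftpb at 12.5, and cochlear markers, from the tissue whose arrays were normalized together with these, lay between 4.01 and 4.86. Arrays correlated with each other at 0.992 to 0.996.

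For some ribosomal protein genes, bright and dim probe sets of the same gene gave different pictures of the Igf1-/- lung. Among the 23 genes with several probe sets, no brightest probe set passed the test, and their log2 fold changes (Igf1-/- minus Igf1+/+) lay between −0.05 and 0.08. Dim probe sets of 3 genes rose in Igf1-/- lungs, namely those of Rpl12, Rps10 and Rps9, with log2 fold changes of 1.17, 0.87 and 0.86. For Rps9 and Rps10 the difference between the dim and the brightest probe set of the same gene itself passed the test. No other of the 52 such differences did, and 26 of the 52 lay above and 26 below 0. Rpl12 had no second single-symbol probe set to compare. Which transcripts or loci the dim probe sets match was not examined. In whole lung, a change in the number of cells that carry an mRNA and a change in the mRNA per cell cannot be told apart.

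Over all 100 probe sets, 73 had a higher and 27 a lower mean in Igf1-/- lungs, and the median log2 fold change was 0.03, as it was over all mouse probe sets. Of all 22626 mouse probe sets, 13162 had a higher and 9464 a lower mean. Of the 100, 3 were called higher, where 0.164% of all mouse probe sets were called higher. None of the 100 was called lower, where 0.393% of all mouse probe sets were, and at an unadjusted p under 0.05 9 members were higher and 0 lower, with 1418 higher and 1421 lower over the array. At the looser adjusted p under 0.20, 6 members were called higher, against 0.981% of all mouse probe sets. All 3 Igf1-/- values lay above all 3 Igf1+/+ values in 17 members, where the share over the array was 10.8%. The opposite order was seen in 4 members, with 7.26% over the array. Without Igf1+/+ replicate 3 the count of called members went from 3 to 7, with 6 higher and 1 lower, while calls over the whole array went from 126 to 710.

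The level of a probe set depends on how well its probes bind as well as on the transcript, so levels serve here only to order the probe sets of a gene. The median level of all mouse probe sets was 6.88. Of the ribosomal protein probe sets 80 lay over it and 20 under it. The member just under was the Rps27 probe set at 6.84, with a log2 fold change of −0.05, and the member just over was a dimmer Rps24 probe set at 7.39, with 0.33. Rps27 and Rps24 encode small subunit proteins.

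At high level the differences of ribosomal protein probe sets were small. The 58 members with a mean of 12 or more had log2 fold changes between −0.12 and 0.13, with a median of 0.02, and none was called. Their median standard error was 0.07. All 304 mouse probe sets at this level had a median of 0.02 and a median standard error of 0.08, and none was called. Their log2 fold changes had a wider range, from −0.65 to 0.30, and 3 were lower at the looser adjusted p under 0.20. The stalk protein gene Rplp0, often used as a reference gene, stood at 13.7, 13.6 and 13.6 in Igf1-/- and 13.6, 13.6 and 13.6 in Igf1+/+ lungs. Its log2 fold change was 0.02 ± 0.07 (SE, limma adjusted p = 0.917). Rplp2, its partner in the stalk that binds elongation factors, gave −0.03 ± 0.08 (adjusted p = 0.879). Rpsa, the small subunit protein also known as the laminin receptor, gave 0.04 ± 0.08 at its brightest probe set (adjusted p = 0.858). Rplp1 had no probe set with a single symbol.

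Rps6 encodes the small subunit protein that S6 kinases phosphorylate downstream of growth factor receptors. Its brightest single-symbol probe set read 9.32, 9.25 and 9.41 in Igf1-/- and 9.31, 9.34 and 9.20 in Igf1+/+ lungs, so the groups overlapped. The log2 fold change was 0.04 ± 0.08 (SE, limma adjusted p = 0.862). The other single-symbol Rps6 probe set lay at 3.95, near the lowest values of the arrays, and gave −0.12 ± 0.09 (adjusted p = 0.627). A further 9 Rps6 probe sets carry several symbols. They lay between 3.92 and 13.97 and gave −0.11 to 0.07, with 0.06 ± 0.07 at the brightest, and none was called.

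Over the 48 brightest probe sets, 36 had a higher and 12 a lower mean in Igf1-/- lungs, with a median log2 fold change of 0.04. Over the array 13162 of 22626 mouse probe sets had a higher mean, with a median of 0.03. The 26 large subunit genes had a median of 0.04 and the 22 small subunit genes one of 0.04. Only 1 brightest probe set was called, that of Rpl12, and it was also the only single-symbol probe set of its gene and a dim one. The next highest values among brightest probe sets were 0.66 for Rps25 (adjusted p = 0.106) and 0.19 for Rpl3l (adjusted p = 0.384), again both from genes with a single probe set. The lowest were −0.12 for Rpl22l1, −0.05 for Rpl7l1 and −0.05 for Rps27, none of which passed the test.

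Paralogs of ribosomal proteins, which replace or resemble the canonical protein in some tissues, were read at 6 genes. Of these 4 had higher and 2 lower means in Igf1-/- lungs, and none was called at its brightest probe set. Rpl3l, known from striated muscle, read 4.19, 4.15 and 4.11 against 4.05, 3.82 and 3.998, all close to the floor of the arrays. Rpl39l, known from testis, gave 0.01 at a level of 4.04. Rps27l, a p53 target, gave 0.08 ± 0.09 at 10.5. Rps4l gave 0.11 ± 0.16, with its 6 values spread from 9.49 to 10.2. Its direction turned when either Igf1-/- replicate 2 or Igf1+/+ replicate 1 was left out.

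Rps9 encodes a small subunit protein that binds early in assembly, and its 3 probe sets differed most. The brightest, 1433689_s_at, read 12.7, 12.7 and 12.7 in Igf1-/- and 12.7, 12.6 and 12.8 in Igf1+/+ lungs. The dimmest, 1426958_at, read 6.51, 6.36 and 6.40 in Igf1-/- and 5.53, 5.55 and 5.63 in Igf1+/+ lungs. Every Igf1-/- value of the dim probe set was above every Igf1+/+ value, while the bright one overlapped. The log2 fold change of the dim probe set was 0.86 ± 0.08 (SE, n = 3 per genotype, limma adjusted p = 0.00371), a 1.81-fold difference, and that of the bright one was −0.00 ± 0.08 (adjusted p = 0.985).

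The remaining Rps9 probe set, 1434624_x_at, read 11.7, 11.03 and 11.8 in Igf1-/- lungs and 6.95, 11.95 and 11.2 in Igf1+/+ lungs. A single array, Igf1+/+ replicate 1, stood more than 4 units below the other 5, and the other Igf1+/+ arrays lay among the Igf1-/- ones. The log2 fold change of 1.47 ± 1.07 did not pass the test (limma adjusted p = 0.599) and was −0.08 without that array. The other Rps9 probe sets showed no such drop on it, with 12.7 and 5.53.

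Rps10, a small subunit protein near the mRNA entry region whose loss in people is linked to Diamond-Blackfan anaemia, had 6 probe sets. The dimmest, 1436384_at, read 6.33, 6.13 and 6.17 in Igf1-/- and 5.33, 5.24 and 5.45 in Igf1+/+ lungs, with no overlap. Its log2 fold change was 0.87 ± 0.09 (SE, limma adjusted p = 0.00763), 1.82-fold. The brightest read 13.4, 13.5 and 13.4 against 13.3, 13.3 and 13.3, with 0.07 ± 0.07 (adjusted p = 0.703). All 5 bright probe sets of Rps10, at levels of 11.2 to 13.4, gave values between 0.00 and 0.08, and none was called. The 0.00 of 1438723_a_at changed sign under several other settings.

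Rpl12 encodes a large subunit protein at the base of the stalk. Its only single-symbol probe set, 1435655_at, read 7.19, 7.02 and 7.24 in Igf1-/- and 5.63, 6.01 and 6.28 in Igf1+/+ lungs. The groups did not overlap, and the Igf1+/+ arrays spread over a wider range. The log2 fold change was 1.17 ± 0.15 (SE, limma adjusted p = 0.0199), 2.26-fold. Without Igf1-/- replicate 3 the adjusted p was 0.102, just past the threshold, with a log2 fold change of 1.13. A pair of bright Rpl12 probe sets that carry further symbols lay at 12.7 and gave 0.13 ± 0.08 and 0.07 ± 0.08 (adjusted p = 0.526 and 0.718).

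A further 3 members, dim or just over the median level, passed only the looser threshold of 0.20. Rpl35, a large subunit protein at the exit of the nascent chain, had a probe set, 1454833_at, that read 4.78, 4.80 and 5.06 against 4.45, 4.29 and 4.43. Its log2 fold change was 0.49 ± 0.10 (limma adjusted p = 0.104), while the 5 other Rpl35 probe sets, at 12.9 to 13.5, gave −0.01 to 0.06. Rps25, a small subunit protein that viral internal ribosome entry sites depend on, read 7.88, 7.86 and 7.73 against 6.88, 7.44 and 7.16, with 0.66 ± 0.13 (adjusted p = 0.106). The Rps18 probe set 1421837_at read 5.45, 5.47 and 5.27 against 5.06, 4.97 and 5.11, with 0.35 ± 0.08 (adjusted p = 0.152). Rps18 encodes a protein of the small subunit head, and its brightest probe set gave 0.05 ± 0.07. In all 3 genes the 3 Igf1-/- values of the probe set named lay above the 3 Igf1+/+ values.

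Most dim members were not called. The 20 members under the median level had a median log2 fold change of 0.08, against 0.05 for all 11313 mouse probe sets under it. Of these 20 members, 17 had a higher mean in Igf1-/- lungs, as did 7395 of the 11313. The groups did not overlap, with Igf1-/- above, in 6 of the 20, where the share among all probe sets under the median was 13.0%. The 9 members under a level of 4.5 gave −0.12 to 0.19 and none was called. The 11 members from 4.5 up to the median gave a median of 0.25, with 3 called and 5 past the looser threshold, a level cut that was chosen after the values were seen. Among all 7185 mouse probe sets in that band the median was 0.05, with 23 called higher and 120 higher at the looser threshold.

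The ending of the probe set name tells how its probes match. Probe sets ending in _at were designed to match 1 transcript, those in _a_at several transcripts of a gene, and those in _s_at or _x_at hold probes shared with other transcripts. All 3 called members, and all 6 past the looser threshold, end in _at, as did 32 of the 37 probe sets called higher over the array and 178 of the 222 past the looser threshold. Of the 30 members with that ending, 26 had a higher mean in Igf1-/- lungs, and their median was 0.08, against 0.03 for all 15605 mouse probe sets with it. Of those 15605, 9370 had a higher mean. The 28 members ending in _a_at had a median of 0.02 and the 40 ending in _x_at one of 0.01, with none called. The ending and the level moved together, since 17 of the 20 members under the median end in _at. Among the 30 members ending in _at, the 3 called were all among these 17. So were 5 of the 6 past the looser threshold. Few members under the median have another ending, so that the parts of ending and level cannot be fully told apart in these members.

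The difference between dimmer and brightest probe sets was then tested directly, as the per-array difference of the pair, which removes anything that moves both probe sets of a gene alike. Over the array 7987 such pairs of 4956 genes were fitted, and 0.0751% were called above 0, that is, with the dimmer probe set rising more in Igf1-/- lungs. Among the 52 ribosomal protein pairs 2 were called above 0 and none below, while 5 were above and 0 below at an unadjusted p under 0.05, where 299 of the 7987 pairs were above and 390 below. The difference was 0.86 ± 0.10 for Rps9 1426958_at (SE, limma adjusted p = 0.0256) and 0.79 ± 0.12 for Rps10 1436384_at (adjusted p = 0.0565). These calls did not hold with every array left out. Rps9 lost its call without any 1 of the 3 Igf1-/- arrays (adjusted p = 0.139 to 0.264) and kept it without each of the Igf1+/+ arrays. Rps10 lost it in every case except without Igf1+/+ replicate 3, with adjusted p = 0.206 to 0.364.

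The other pairs were not called. Rpl35 1454833_at differed from its brightest probe set by 0.47 ± 0.10 (limma adjusted p = 0.242), Rps24 1455195_at by 0.31 ± 0.10 (adjusted p = 0.393) and Rps18 1421837_at by 0.30 ± 0.11 (adjusted p = 0.464). Over all 52 pairs, 26 differences were above and 26 below 0. Among the 14 pairs whose dimmer probe set lay under the median level, 10 were above and 4 below. Over the array 2180 of 4596 such pairs were above.

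The lowest pair was Rpl41, the smallest ribosomal protein, whose dim probe set 1433530_at read 6.44, 6.34 and 6.41 in Igf1-/- and 6.91, 7.01 and 6.18 in Igf1+/+ lungs. Igf1+/+ replicate 3 lay below all the others, so the groups overlapped. The within-gene difference was −0.37 ± 0.20 (limma adjusted p = 0.644), and the log2 fold change of the probe set, −0.30 ± 0.19, went to −0.56 with an adjusted p of 0.0324 without that array. A second dim Rpl41 probe set had the same order of arrays, with 7.50, 7.38 and 7.48 against 7.72, 7.97 and 7.21. The other low pairs were Rps6 with −0.16 ± 0.10 and Rpl27, a large subunit gene, with −0.15 ± 0.12.

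The 95 probe sets that name a ribosomal protein beside pseudogenes or predicted genes were fitted in the same way. The 82 over the median level gave −0.27 to 0.19 with none called, and among the 13 under it 1 was called and 4 passed the looser threshold, beside 24 called higher and 130 past the looser threshold among the 11313 mouse probe sets under the median. Rpl30, a large subunit protein for which no single-symbol probe set was on the array, was the one called. Its probe set 1438076_at read 6.07, 5.81 and 5.80 in Igf1-/- and 4.77, 5.05 and 4.98 in Igf1+/+ lungs, a log2 fold change of 0.96 ± 0.11 (SE, limma adjusted p = 0.0104). The bright Rpl30 probe set, at 12.6, gave −0.02 ± 0.07, and another at 3.90 gave 0.07 ± 0.08.

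Dim probe sets of 3 other genes of this kind passed the looser threshold only. Rps13, a small subunit protein, had a probe set that read 6.94, 6.31 and 6.89 against 5.81, 6.08 and 5.66, with 0.86 ± 0.17 (limma adjusted p = 0.106). Rpl9 at its dim probe set gave 0.51 ± 0.12 (adjusted p = 0.158) and Rpl11, which binds the p53 regulator Mdm2, gave 0.35 ± 0.08 (adjusted p = 0.144). The bright probe sets of Rps13 gave 0.05 at 12.5, 0.19 at 11.9 and −0.02 at 11.8. A bright probe set gave 0.04 for Rpl9 at 13.4 and 0.09 for Rpl11 at 12.8. With these probe sets added, an alternative chosen after seeing the data, 4 within-gene differences were called, all above 0, of 8 called above and 2 below among 8057 pairs over the array. They were Rpl12 with 1.05 (adjusted p = 0.0526), Rpl30 with 0.98 (adjusted p = 0.0399), Rps9 and Rps10. Rps25 against its bright probe set at 12.6 differed by 0.71 and was not called (adjusted p = 0.21).

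Other genes of the translation machinery were read from lists at their brightest probe sets, and no member of the following lists was called. Of 15 other ribosome subunits and TOP mRNAs, 11 had a higher and 4 a lower mean in Igf1-/- lungs, with a median log2 fold change of 0.04; Tpt1 gave −0.04 and the elongation factor Eef1a1 0.08. Of 20 translation initiation factors 14 were higher, with a median of 0.08, and Eif4h gave −0.05 and Eif5a 0.12. Of 34 ribosome biogenesis genes 27 were higher, with a median of 0.08; the nucleolar proteins Npm1 and Ncl gave −0.04 and 0.04. Of 5 hosts of small nucleolar RNAs, which are TOP transcripts without a stable protein product, 4 were higher, with a median of 0.16, and Gas5 gave 0.16 and Snhg8 0.14. Of 14 genes listed under mTOR, S6 kinases and TOP regulation 7 were higher and 7 lower, with a median of 0.00. Rheb gave −0.01, and Mxd4, which is on this list but is not itself a gene of these kinds, gave −0.00. Mitochondrial ribosomal proteins, the separate set that serves the mitochondrial genome, had 47 of 74 genes higher and a median of 0.04, with Mrpl39 at 0.00 and Mrpl23 at 0.16. These medians stand beside 0.03 over all mouse probe sets, of which 13162 of 22626 had a higher mean. Dimmer probe sets of these lists were not called either.

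Some blood cell markers differed between the genotypes. Of 4 erythroid genes 2 had a higher and 2 a lower mean in Igf1-/- lungs. The 2 lower ones were called, Slc4a1 with −1.64 and Alas2 with −0.87. Summed linear levels of all 4 were 798 to 1129 in Igf1-/- and 1689 to 2084 in Igf1+/+ lungs. All 7 neutrophil genes had higher means in Igf1-/- lungs with 1 called, Camp with 0.83, and sums of 2635 to 3893 against 1954 to 1991; S100a8 gave 0.63 and S100a9 0.68. All 6 lymphoid genes had higher means with none called, with sums of 286 to 320 against 243 to 275, Cd3e with 0.30 and Cd79b with 0.15. A higher mean was also seen in 13162 of all 22626 mouse probe sets. Sums of 7 cycling genes overlapped, at 5181 to 6593 against 4220 to 6097, and Pcna and Top2a gave 0.08 each. The part of these cells in the dim ribosomal protein values was not tested. As signs of RNA quality, the beta-actin 3′ minus 5′ difference was 0.28 to 0.43 in Igf1-/- and 0.23 to 0.41 in Igf1+/+ lungs, and the 5′ control of 18S ribosomal RNA was 7.70 to 8.99 against 7.67 to 9.75, both overlapping.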

How the data were processed

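RNA of 3 Igf1-/- and 3 Igf1+/+ E18.5 lung samples was read on Affymetrix mouse expression arrays. The authors made the deposited log2 values by RMA, which corrects background, equalises distributions between arrays and summarises the probes of a set; lung and cochlear arrays were normalized together, and no source used here states the RMA version. No depth applies to arrays, and the number of arrays limits the precision. Low values are compressed by RMA, so that fold changes of dim probe sets can be understated.

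The 64 control probe sets were left out and 22626 were fitted with limma 3.58.1 in R 4.3.3 (lmFit, eBayes, genotype only, two-sided, Benjamini-Hochberg over all probe sets, called under 0.10, looser threshold 0.20). The study's own method, SAM, which estimates its false discovery rate by permuting the arrays, was not run. Within-gene differences were fitted the same way over all 7987 pairs. Symbols came from the platform annotation: 20380 probe sets had 1 symbol, 691 several and 1555 none. The code was tested on simulated data.

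Named probe sets were the called members, the genes with the largest within-gene differences, genes the study lists, the extremes among brightest probe sets, the genes with most probe sets, the stalk genes, Rps6, Rpsa and paralogs, the members next to the median level, Igf1, and up to 2 genes of each list. Other members are named after their values were seen. Members and lists were chosen with earlier results of these data known. Alternatives were the replicate block, quantile normalization, centring, a level filter, variance trend, array weights, sex as a block, probe set types, annotation, the dimmest probe set only, the looser threshold and leaving out each array.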

Additional observations from a re-analysis of the deposited data

How the results depend on the processing

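Rps9 1426958_at and Rps10 1436384_at were called under each of the 12 alternatives in which they could be fitted (adjusted p up to 0.033 and 0.0501), and Rpl12 1435655_at under 11 of 12. Counts are given in the order of all members (3 in the report), brightest (1), dimmer (2), within-gene differences (2) and all mouse probe sets (126). Array quality weights gave 7, 2, 5, 5 and 628, and a variance trend with robust estimates gave 5, 2, 3, 2 and 204. The threshold of 0.20 gave 6, 2, 4, 2 and 588. Leaving out probe sets under the median level, which removes the dim members by construction, gave 1 called member (Rps25), 0 dimmer and 0 within-gene calls. Without _s_at and _x_at probe sets 1 dimmer probe set was called, since Rps9 then has no brighter one. With several-symbol probe sets added there were 0 brightest, 4 dimmer and 4 within-gene calls. Leaving out 1 array at a time gave 2 to 7 members, 0 to 2 brightest, 2 to 5 dimmer, 0 to 4 within-gene and 45 to 710 calls in all. Depending on the setting, the median log2 fold change of brightest probe sets moved from 0.0405 to 0.0192 (quantile normalization), 0.0195 (several symbols added) and 0.0135 to 0.0549 (1 array left out).

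The replicate block left 1 within-gene call, Rps9 (adjusted p = 0.0965), and 138 calls over the array. Same-numbered arrays deviated from their group means with correlations of −0.04, −0.23 and −0.14. With so few arrays per genotype, these values cannot decide whether the numbers pair the samples. The remaining counts stayed within 1.5 times under the block, and under quantile normalization, centring and sex as a block.

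Signs turned for 10 named probe sets, none of them called. Quantile normalization gave −0.0321 for Rpl39l, −0.0224 for Rps10 1438723_a_at and −0.0034 for Rps24 1436064_x_at. Array weights gave −0.019 for Rpl39l, −0.0064 for Rps10 1438723_a_at and 0.0427 for Rps9 1433689_s_at, which centring put at 0.0013. Leaving out 1 array turned Rpl35 1434231_x_at (−0.015 to 0.0501), Rpl39l (−0.0484 to 0.0594), Rplp2 (−0.0655 to 0.0137), Rps10 1438723_a_at (−0.0158 to 0.0221), Rps24 1436064_x_at (−0.0063 to 0.0373), Rps4l (−0.0425 to 0.2495), Rps6 1416142_at (−0.0022 to 0.0774), Rps9 1433689_s_at (−0.0558 to 0.0478), Rps9 1434624_x_at (−0.0802 to 2.4229) and Rpsa (−0.0076 to 0.0672). The cause was not tested. Signal over background limits the dimmest members, 9 of which lie under 4.5 while the lowest value of an array is about 3.1.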

Other observations

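Xist and the Y-linked gene Eif2s3y split the arrays by sex. Eif2s3y read 7.50 on Igf1-/- replicate 1 and 7.95 on Igf1+/+ replicate 3 and between 3.46 and 3.53 on the other 4 arrays. Xist 1427262_at read 7.09 and 3.50 on those arrays and 12.1 to 12.2 on the others, so Igf1-/- replicate 1 held both Y-linked and intermediate Xist signal. Each genotype thus held both sexes, and Igf1+/+ replicate 3 is also the array that set Rpl41 apart. The other array with Y-linked signal, Igf1-/- replicate 1, had the highest value of its genotype at the dim Rpl41 probe sets.

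The 20 members under the median level deviated by array from their 6-array means. The medians were 0.08, 0.08 and 0.04 in Igf1-/- and −0.04, −0.01 and −0.12 in Igf1+/+ lungs. Medians of the 48 brightest lay between −0.04 and 0.04 on every array, and 6 of the 48 are also among the 20. All 11313 mouse probe sets under the median level had a median log2 fold change of 0.05, against 0.08 for the 20 members.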
